A study of Mus musculus with 24 samples.

Results

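Serum response factor and 7 genes commonly counted among its targets were followed through all 24 RNA-seq libraries of a study of mouse cortical neurons: Srf itself, the matricellular genes Ccn1 and Ccn2, the cytoplasmic actins Actb and Actg1, and the actin-binding genes Vcl, Tpm1 and Flna. They are 8 of the 55177 genes in the tables, and they were selected on their responses to depolarization in these same libraries, so their KCl responses are given here as a description without a test. Neurons came from cortex of E16.5 mouse embryos, the cortex of each embryo counting as a biological replicate in the protocol. Every culture was silenced overnight with 1 µM tetrodotoxin and 100 µM D-AP5 and then either left at rest or depolarized with 50 mM KCl for 30 min. At 7 days in vitro (DIV7), naive WT neurons in 0.1% DMSO gave 2 resting and 2 KCl libraries from polyA RNA. At DIV18, rRNA-depleted total RNA was taken from neurons with a non-targeting gRNA (NT, 2 resting and 2 KCl libraries) and from neurons with a Smarcc2 knockout. Smarcc2 encodes a core subunit of the BAF chromatin remodelling complex. The knockout neurons carried an empty vector (3 resting, 3 KCl), an addback of WT Smarcc2 (2 resting, 3 KCl), the S586E mutant (3 resting only) or the S586A mutant (2 KCl only), in which a serine is replaced by glutamate or alanine. Culture age and library preparation changed together and cannot be told apart.

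SRF binds the CArG box of its targets together with coactivators of 2 kinds. Ternary complex factors such as Elk1 link it to MAP kinase signalling and to early genes such as Fos and Egr1, and MRTF coactivators, which are held back by free actin monomers, link it to genes of the actin cytoskeleton, the actins and Srf itself included. Ccn1 and Ccn2 encode secreted proteins that bind integrins at the cell surface, and both are also known targets of YAP with TEAD factors. Vinculin (Vcl) joins actin to adhesion sites, tropomyosin 1 (Tpm1) coats actin filaments and filamin A (Flna) crosslinks them.

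The stretches before the annotated starts show where the letters of a CArG box lie relative to these genes. RefSeq promoters (GRCm38.p6) were in the table for 6 of the 8 genes (all but Actb and Ccn2), and the 250 bases before each start were searched on both strands for a CArG box (CC, then 6 letters that are each A or T, then GG) and for the TEAD motif GGAATG. A CArG box was found for 3 of the 6, against 1.47% of 32851 promoters of the same length, and a TEAD motif for 4 of the 6, against 12.6%. The 3 stretches with a CArG box are printed with the box in capitals, and that of Ccn1, the gene with the largest KCl response, is printed beside them because it holds none. They lie at chr17:46556163-46556412 (Srf, minus strand), chr11:120348496-120348745 (Actg1, minus), chr14:20929148-20929397 (Vcl, plus) and chr3:145649986-145650235 (Ccn1, minus).
Srf: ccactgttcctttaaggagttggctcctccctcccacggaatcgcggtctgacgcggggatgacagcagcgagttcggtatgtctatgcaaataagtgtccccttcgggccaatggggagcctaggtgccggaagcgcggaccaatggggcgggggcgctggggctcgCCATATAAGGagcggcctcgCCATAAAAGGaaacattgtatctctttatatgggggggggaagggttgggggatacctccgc
Actg1: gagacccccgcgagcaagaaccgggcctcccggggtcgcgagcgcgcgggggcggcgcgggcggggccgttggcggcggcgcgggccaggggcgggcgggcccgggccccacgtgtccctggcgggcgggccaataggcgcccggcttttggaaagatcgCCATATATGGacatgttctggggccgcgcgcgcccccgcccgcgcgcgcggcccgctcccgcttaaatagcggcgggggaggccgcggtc
Vcl: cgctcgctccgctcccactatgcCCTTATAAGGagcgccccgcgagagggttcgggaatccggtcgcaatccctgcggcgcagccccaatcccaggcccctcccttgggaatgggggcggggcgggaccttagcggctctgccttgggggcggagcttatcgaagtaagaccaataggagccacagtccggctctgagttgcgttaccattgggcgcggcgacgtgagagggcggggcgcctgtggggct
Ccn1: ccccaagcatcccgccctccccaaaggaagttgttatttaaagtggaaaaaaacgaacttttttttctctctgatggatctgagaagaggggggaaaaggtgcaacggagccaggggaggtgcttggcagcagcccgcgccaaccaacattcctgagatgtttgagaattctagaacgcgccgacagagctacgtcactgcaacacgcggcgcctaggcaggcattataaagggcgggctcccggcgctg

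Srf held 2 boxes, CCATATAAGG at 82 to 73 bases and CCATAAAAGG at 62 to 53 bases before the start. Actg1 held CCATATATGG at 90 to 81 bases, and Vcl held CCTTATAAGG farther out, at 227 to 218 bases. The TEAD motif stood on the strand opposite to the gene 103 to 98 bases before the start of Ccn1 and 146 to 141 bases before that of Flna. It stood on the gene's own strand 143 to 138 bases before Vcl and 56 to 51 bases before Tpm1. These are matches of letters in 1 window, not measured binding sites.

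The Smarcc2 transcript followed the labels. At rest it stood at 265 and 237 CPM (counts scaled to a common library total) in the NT libraries and at 47.1, 49.8 and 64.1 CPM in the knockout with vector, a log2 fold change of -2.23, and under KCl the log2 fold change was -2.42. WT addback libraries had 737 to 1089 CPM and those with a mutant 1164 to 1340 CPM, so addback exceeded the NT level in every library. The summed level of 6 neuronal markers was 4008 to 4077 CPM at DIV7 and 3170 to 4245 CPM at DIV18, and no marker of any cell type examined was at 0 in all libraries of an age. A DIV7 library held 24536056 to 30135576 counts, and a DIV18 library 14510199 to 24024959. These are bulk cultures, in which fewer cells of a type and less RNA per cell cannot be told apart.

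Per transcript length, the 8 genes spanned a wide range of levels at both ages. In resting DIV7 neurons the mean TPM of 2 libraries was 3301 for Actb, 2693 for Actg1, 362 for Flna, 108 for Tpm1, 38.7 for Srf, 15.5 for Vcl, 2.90 for Ccn1 and 1.15 for Ccn2. After KCl, Ccn1 had a mean of 68.6 TPM, which put it above Srf (55.9 TPM) and Vcl (15.8 TPM). In the 10 resting DIV18 libraries the median TPM was 523 for Actb, 480 for Actg1, 56.7 for Tpm1, 15.0 for Srf, 4.88 for Flna, 2.46 for Vcl, 1.63 for Ccn1 and 0.262 for Ccn2. In the 10 KCl libraries at DIV18, Ccn1 had a median of 5.18 TPM, against 7.08 for Flna and 2.99 for Vcl. The resting DIV18 ranges of the 2 actins overlapped (422 to 634 TPM for Actb and 380 to 554 for Actg1). So did those of Vcl (1.83 to 3.84 TPM) with Flna (2.43 to 6.76) and with Ccn1 (0.458 to 2.87), so these neighbours have no order beyond their spread. Srf, Actb, Actg1, Vcl and Flna stood lower in every DIV18 library than in any at DIV7, on the TPM as on the CPM scale. The share of all genes that did so was not counted. Smarcc2, outside the 8, was also lower in the NT libraries (50.7 to 61.5 TPM) than at DIV7 (197 to 211 TPM). CPM were scaled within each age apart, so they are not on 1 scale across ages. For Srf they nearly met, with 39.3 CPM at most at DIV18 and 39.4 CPM at least at DIV7.

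**Figure D1:**
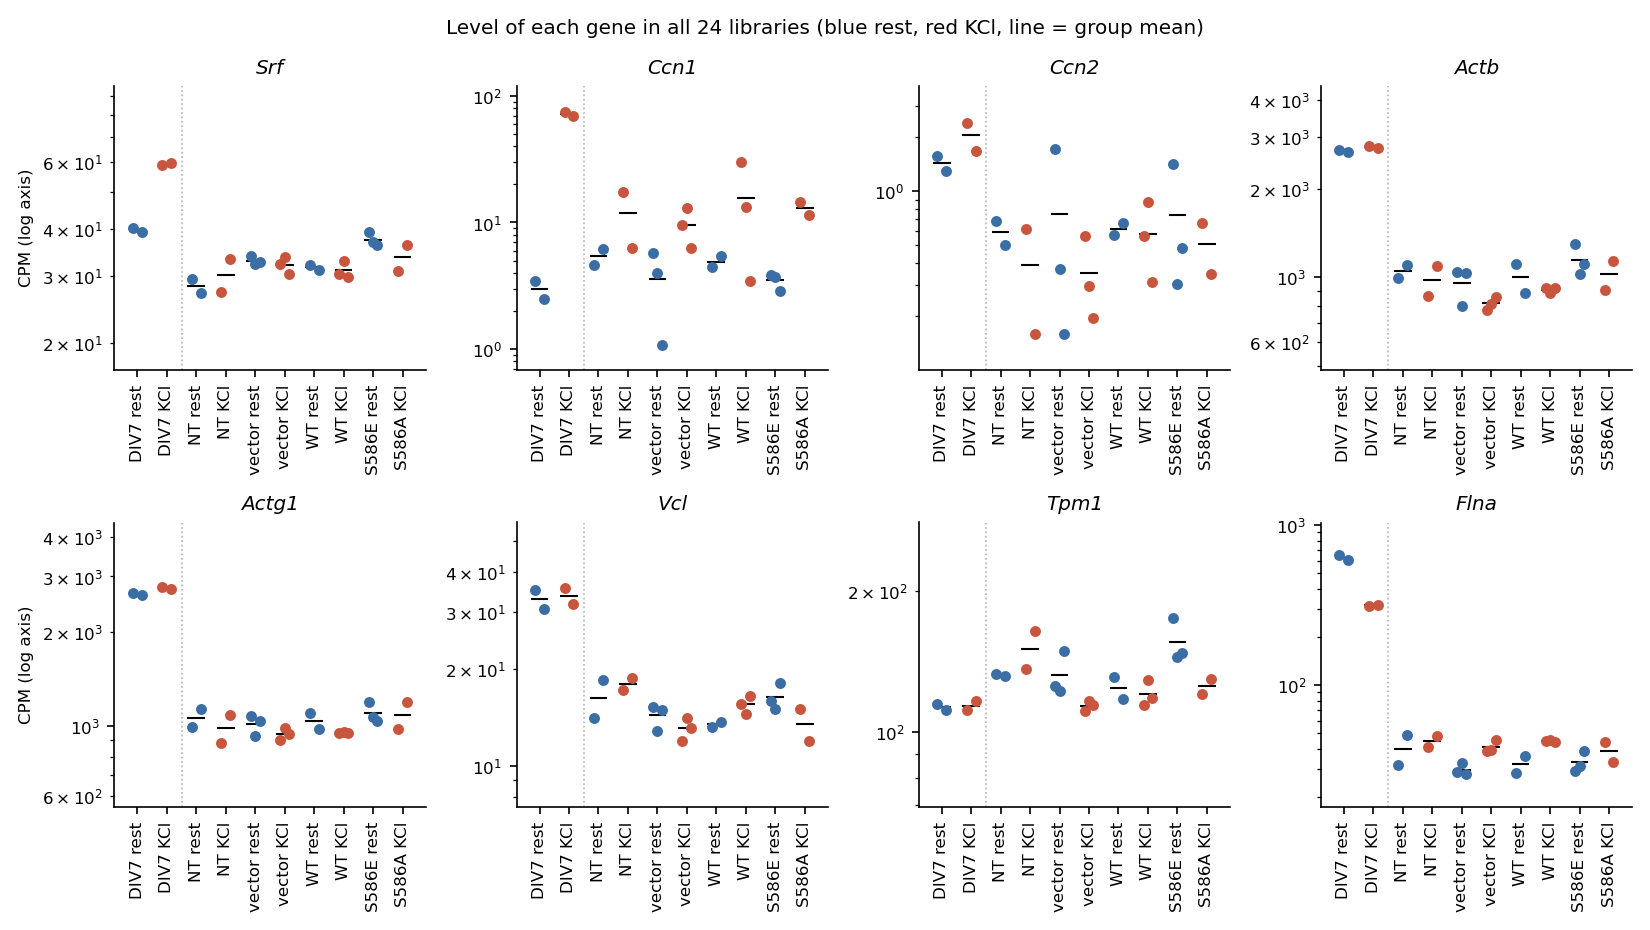
CPM of each gene in all 24 libraries, on a log axis that differs between panels, with resting libraries in blue, KCl libraries in red and a line at each group mean; the dotted line parts DIV7 from DIV18. Ccn1 at DIV7 went from 2.50 and 3.47 CPM at rest to 69.6 and 75.1 CPM under KCl, and Flna from 605 and 648 CPM to 314 and 317 CPM.

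Ccn1 (ENSMUSG00000028195.4, chr3:145646976-145649981, minus strand) had by far the largest KCl response of the 8 genes at DIV7. The resting libraries held 3.47 and 2.50 CPM (99 and 62 counts) and the KCl libraries 75.1 and 69.6 CPM (2221 and 1910 counts), a log2 fold change of 4.58 (SE 0.126, n = 2 per group), with no overlap. At DIV18 the response was smaller and uneven between libraries. NT libraries went from 4.63 and 6.15 CPM at rest to 17.4 and 6.30 CPM under KCl (log2 fold change 1.15, SE 0.675). Those with vector went from 5.71, 3.96 and 1.08 CPM to 9.63, 12.9 and 6.26 CPM (1.40, SE 0.585). WT addback libraries went from 4.41 and 5.41 CPM to 30.1, 13.3 and 3.45 CPM (1.67, SE 0.641). KCl libraries lay above all resting ones for NT and for vector, whereas for WT the lowest KCl library lay below both resting ones. Single libraries carried much of these values: the NT log2 fold change was 0.22 without the first KCl library and 1.69 without the second, the WT value was 0.77 without the first KCl library and 2.14 without the third, and the vector value was 0.99 without the third resting library. The mutants have 1 state each: S586E neurons at rest held 3.85, 3.73 and 2.87 CPM, and S586A neurons under KCl held 14.5 and 11.5 CPM.

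Within constructs, the KCl libraries that were low in Ccn1 were also low in Fos, an early gene induced by depolarization. Fos stood at 113 and 38.5 CPM in the same 2 NT KCl libraries, at 101, 111 and 51.2 CPM in those with vector and at 197, 106 and 32.7 CPM in those with WT addback, the same order as Ccn1 in each. In the 2 S586A libraries, with 99.8 and 101 CPM of Fos, the order was the reverse, with a difference of Fos that is small beside the others. How far the depolarization of each culture sets the Ccn1 value was not tested.

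Ccn2 (ENSMUSG00000019997.11, chr10:24595442-24598683, plus strand), the closest relative of Ccn1 among the 8, was barely present. It stood at 1.57 and 1.29 CPM at rest and 2.42 and 1.68 CPM under KCl at DIV7 (log2 fold change 0.52, SE 0.274), with the KCl libraries above the resting ones. At DIV18 it ranged from 0.160 to 1.72 CPM, which is 2.5 to 32 counts a library. Resting and KCl libraries overlapped in NT (-0.58, SE 0.912), vector (-1.09, SE 0.764) and WT (-0.09, SE 0.797), and at this depth no response of either sign was detectable.

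Srf (ENSMUSG00000015605.6, chr17:46548329-46556175, minus strand), which encodes the factor itself, was higher under KCl at DIV7 only to a modest extent: 40.3 and 39.4 CPM at rest against 59.0 and 59.7 CPM under KCl, a log2 fold change of 0.57 (SE 0.0565), or 1.49-fold. At DIV18 all 20 libraries lay between 27.1 and 39.3 CPM, with overlapping resting and KCl values in NT (0.09, SE 0.108), vector (-0.04, SE 0.0885) and WT (-0.03, SE 0.0979).

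The cytoplasmic actins moved by a few percent at most at DIV7. Actb (ENSMUSG00000029580.14, chr5:142903115-142906754, minus strand) stood at 2697 and 2664 CPM at rest and at 2793 and 2760 CPM under KCl (log2 fold change 0.05, SE 0.0284). Actg1 (ENSMUSG00000062825.15, chr11:120345690-120348542, minus strand) stood at 2658 and 2613 CPM at rest and at 2787 and 2730 CPM under KCl (0.07, SE 0.0295). For both genes the KCl libraries lay above the resting ones. At DIV18 the sign was the other way in all 3 constructs: -0.11 (SE 0.151), -0.24 (SE 0.123) and -0.14 (SE 0.137) for Actb in NT, vector and WT, and -0.11 (SE 0.115), -0.10 (SE 0.0936) and -0.12 (SE 0.104) for Actg1. Only the Actg1 libraries of the WT addback were without overlap, and all of these values are within 2 SE of 0. The actin genes are near-identical in coding sequence and have processed pseudogenes, so how the pseudoalignment shared reads among them is uncertain.

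Vcl (ENSMUSG00000021823.10, chr14:20929398-21033676, plus strand) and Tpm1 (ENSMUSG00000032366.15, chr9:67022590-67049406, minus strand) had no response to speak of at DIV7. Vcl went from 35.2 and 30.8 CPM to 35.7 and 31.8 CPM (0.03, SE 0.0926) and Tpm1 from 115 and 112 CPM to 111 and 117 CPM (0.01, SE 0.0495), with overlapping libraries for both. At DIV18, Tpm1 had opposite signs in 2 constructs. NT libraries went from 133 and 132 CPM at rest to 136 and 165 CPM under KCl (0.18, SE 0.112), the KCl libraries on top. Libraries with vector went from 126, 123 and 149 CPM to 111, 117 and 114 CPM (-0.22, SE 0.0923), the KCl libraries at the bottom. The difference of the 2 responses was -0.40 (SE 0.145). Single libraries moved both values: NT gave 0.038 without the second KCl library and 0.31 without the first, and vector gave -0.12 without the third resting library. The Vcl responses were 0.14 (SE 0.149) in NT, -0.14 (SE 0.126) in vector and 0.21 (SE 0.138) in WT, and the KCl libraries lay above the resting ones only in WT.

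Flna (ENSMUSG00000031328.15, chrX:74223461-74249820, minus strand) was the 1 gene of the 8 with clearly less RNA under KCl at DIV7. Its resting libraries held 648 and 605 CPM and its KCl libraries 314 and 317 CPM, a log2 fold change of -0.99 (SE 0.0450), or 1.99-fold lower after 30 min. On the length-scaled measure it went from 380 and 343 TPM to 152 and 148 TPM. At DIV18 its level was 27.7 to 48.5 CPM in all 20 libraries, and the KCl means were higher than the resting means in all 3 constructs. Those with vector went from 28.8, 32.4 and 27.7 CPM to 38.6, 39.4 and 45.5 CPM (0.47, SE 0.152), and the WT addback from 28.2 and 36.0 CPM to 44.8, 45.5 and 44.3 CPM (0.48, SE 0.169), without overlap in either. The NT libraries overlapped, with 31.5 and 48.5 CPM at rest and 41.2 and 48.1 CPM under KCl (0.16, SE 0.182). The NT value turned to -0.12 without the first resting library, and was 0.50 without the second, 0.26 without the first KCl library and 0.041 without the second. Counting protein-coding transcripts only gave 1.00 for vector, and length offsets gave 0.94 for WT, so the sizes at DIV18 depend on how transcripts are counted.

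**Figure D2:**
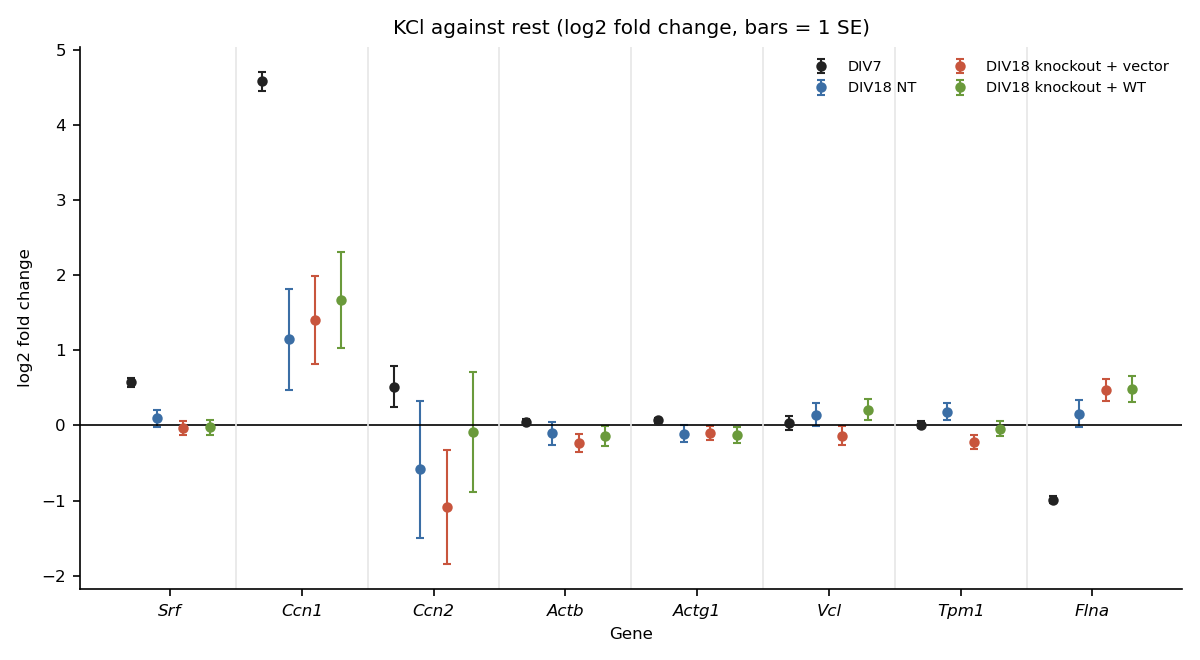
Log2 fold change of KCl against rest for each gene, with bars of 1 SE, at DIV7 (2 libraries per group) and in 3 DIV18 constructs (2 or 3 per group). Ccn1 lies above 0 in all 4 settings, from 1.15 to 4.58, whereas Flna lies at -0.99 at DIV7 and between 0.16 and 0.48 at DIV18.

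By the common threshold, 3 of the 8 genes (Srf, Ccn1 and Flna) were called at DIV7, where 17.0% of all 19822 genes were called (3371 genes, of which 1455 rose). None of the 8 was called by edgeR's quasi-likelihood test at DIV18, where 0.00955% of 20940 genes were called in NT (2 genes; 906 at an unadjusted p under 0.05 and 15 by DESeq2), 0.0716% in vector (15; 2167 and 52) and 0.043% in WT (9; 1040 and 32). With no low-count filter Ccn1 was called in all 3 of these responses and Flna in vector and WT. That fit called 192, 515 and 196 of all genes in NT, vector and WT, far more than the main fit. Since the genes were chosen on these responses, the counts say nothing further. The differences of the members' responses between constructs ran from -0.50 to 0.31 for vector minus NT and from -0.02 to 1.00 for WT minus vector. The widest of them belong to Ccn2 (-0.50, SE 1.20, and 1.00, SE 1.11), whose SE exceeds the value.

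The lower Flna level under KCl at DIV7 was shared by its transcript types but was uneven between them. Protein-coding transcripts summed to 462 and 389 CPM at rest and 225 and 216 CPM under KCl. Transcripts annotated for nonsense-mediated decay went from 92.6 and 132 CPM to 51.0 and 66.3 CPM, and those with a retained intron from 93.2 and 83.2 CPM to 34.0 and 32.0 CPM. In each of these types both KCl libraries were below both resting ones. The main coding transcript, Flna-201, went from a mean of 349 CPM to 177 CPM, whereas Flna-211 and Flna-209, both with a retained intron, were 8.37-fold and 9.29-fold lower in the mean, at 1.89 and 0.645 CPM under KCl. A processed transcript, Flna-215, went the other way, from 0.283 to 3.13 CPM. How kallisto splits reads among these overlapping forms is uncertain.

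**Figure D3:**
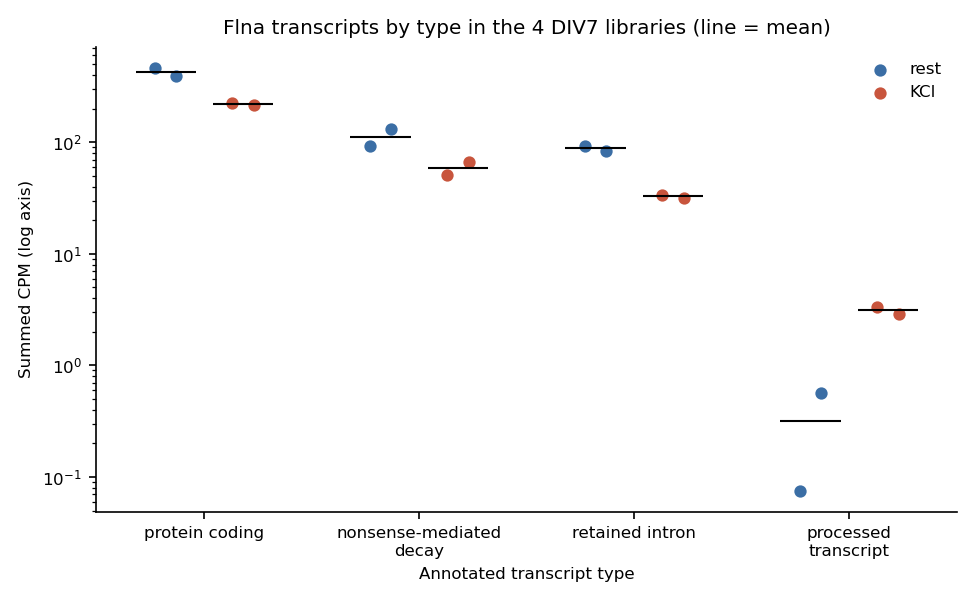
Summed CPM of Flna transcripts by annotated type in the 4 DIV7 libraries, on a log axis, with a line at each mean of 2. The KCl points lie below the resting points for protein-coding, nonsense-mediated decay and retained-intron transcripts, and above them for the processed transcript.

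Retained-intron forms took smaller shares of 4 other members under KCl at DIV7 as well. Their share of Flna counts was 13.8% to 14.4% at rest and 10.1% to 10.9% under KCl. For Tpm1 it was 1.67% to 1.91% at rest and 0.181% to 0.342% under KCl, and for Vcl 1.72% to 2.24% and 0.528% to 0.818%. The actins had small shares that were lower too, with 0.405% to 0.432% and then 0.130% to 0.148% for Actb and 0.139% to 0.160% and then 0.0509% to 0.0715% for Actg1. Srf did not share this, at 3.51% to 4.33% at rest and 4.02% to 4.05% under KCl. At DIV18 the direction was not uniform. The Actg1 share was higher under KCl with vector (0.107% to 0.243%, then 0.646% to 0.928%). With WT it was also higher (0.0929% to 0.183%, then 0.429% to 0.834%). Actb with vector was likewise higher (0.105% to 0.217%, then 0.274% to 0.574%). Tpm1 and Vcl in NT were lower (for Tpm1 0.905% to 1.05%, then 0.350% to 0.774%). Tpm1 with WT was higher (0.363% to 0.536%, then 0.785% to 1.20%), as was Actb with WT (0.143% to 0.230%, then 0.250% to 0.594%). Srf was higher in NT (3.21% to 3.53%, then 4.52% to 5.37%) and with WT (1.81% to 2.05%, then 2.42% to 5.45%). The DIV7 values come from 2 libraries per group of polyA RNA, and no shares were tested. Shares over all genes were not computed, so a shift common to many genes cannot be seen here.

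In the wider SRF pathway at DIV7, the early targets were all called and the other lists only in part, and the difference between the lists was not tested. All 13 early genes listed as targets of SRF with ternary complex factors rose, with a median log2 fold change of 3.23 against -0.00 over all genes tested. The largest rises were those of Fosb (8.01, SE 0.121), Fos (7.23, SE 0.0799) and the nuclear receptor gene Nr4a1 (5.77, SE 0.0806), and the smallest that of the survival gene Mcl1 (0.58, SE 0.0535). Of 41 genes tested among cytoskeletal targets of SRF with MRTF, 2 rose and 4 fell (median 0.07), a share of 14.6% beside the 17.0% called over all genes. Smooth muscle actin Actg2 rose from 2 and 2 counts to 29 and 39 counts (log2 fold change 3.92), a level where reads shared with the abundant actins are uncertain, and the actin-severing gene Cfl1 rose by 0.15 (SE 0.0350). Those that fell included Myh9, a non-muscle myosin heavy chain (-0.78, SE 0.0918), Pdlim7 (-0.33, SE 0.0856) and the talin gene Tln1 (-0.30, SE 0.0689), whose direction turned with length offsets (0.093). The other was the integrin gene Itgb1 (-0.29). Among 16 tested SRF regulators, Scai (0.31), which represses MRTF, and Rock2 (0.25) rose, and Fhod1 (-0.63), the ternary complex factor Elk1 (-0.45), Rhob (-0.31) and Rock1 (-0.24) fell. The Wnt co-receptor gene Lrp6 (0.37) was the 1 called of 10 CCN relatives and receptors, and Dlc1 (0.53), Crim1 (0.46) and Lats2 (0.38) were the 3 called of 15 YAP-TEAD genes, all of them higher. Both shares are close to that over all genes, and the regulators had 37.5% called. Leaving out 1 library in turn gave 3 to 5 calls among the cytoskeletal targets, 2 to 4 among the regulators and 1 to 4 among the YAP-TEAD genes, and the lowest of these came without the first KCl library, without the first resting library, and without the first KCl or either resting library. The summed level of 7 astrocyte markers was 302 to 342 CPM at rest and 256 to 278 CPM under KCl, with 2 of the 7 called lower. Its part in these results was not tested.

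At DIV18 the calls among the early targets of SRF were all upward, 1 of 13 in NT, 7 in vector and 5 in WT, and no cytoskeletal target was called. In NT, Fosb was the 1 called of 13 (3.17, adjusted p = 0.00463 by edgeR), with a list median of 1.65 against -0.00 over all genes. In vector, 7 of 13 rose (median 1.90): Fosb (4.11), Fos (3.80), Egr4 (2.63), Egr1 (2.34), Ier2 (2.09), the synaptic gene Arc (1.90) and Junb (1.74). In WT, 5 of 13 rose (median 1.98): Fos (4.52), Fosb (4.10), Egr2 (4.04), Egr4 (2.43) and Egr1 (2.37). The counts move with single libraries: NT gave 0 without either resting library and 3 without the second KCl library, vector gave 3 without the first resting library and 4 without the second resting, the third resting, the first KCl or the second KCl library, and WT gave 1 without either resting library and 9 without the third KCl library. The numbers called are thus not a ranking of the constructs, and a difference between them was not tested.

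Although the selection drew on the same libraries, it did not compare constructs within a state, and Smarcc2 loss was the first such comparison. It asks how the 8 genes stand in knockout neurons with vector against NT neurons in the same state. The labels name no vector for the NT neurons, and if they carried none, vector and knockout cannot be told apart. At rest no member was called by edgeR, against 5.9% of all genes (1236, of which 446 were higher and 790 lower; 4262 at an unadjusted p under 0.05 and 1663 by DESeq2). The member median was -0.10 against 0.02 for all genes. Flna had the value farthest from 0 for its error (log2 fold change -0.43, SE 0.167, adjusted p = 0.143 by edgeR), but its NT libraries stood far apart, with 48.5 CPM in the second against 31.5 in the first and 27.7 to 32.4 in vector. It was -0.09 without the second NT library and -0.72 without the first. The edgeR fit with no low-count filter gave an adjusted p of 0.0102, but it called 2016 genes against 1236. Srf was higher in all 3 vector libraries than in both NT libraries (0.22, SE 0.0989, adjusted p = 0.215 by edgeR).

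Under KCl, 1 of the 8 genes was called in Smarcc2 loss, against 2.67% of all genes (560, of which 152 were higher and 408 lower). Tpm1 stood at 136 and 165 CPM in NT and at 111, 117 and 114 CPM in vector, so no libraries overlapped. It fell by 0.40 on the log2 scale (SE 0.102, adjusted p = 0.0430 by edgeR). At rest its log2 fold change was -0.00 (adjusted p = 0.996 by edgeR). The Tpm1 value under KCl is thus close to the difference of its KCl responses, vector minus NT (-0.40). The genes were chosen on those responses, so the call is not independent of the selection. The call was lost without any 1 of the 3 vector libraries (adjusted p = 0.132, 0.0948 and 0.111) and without the second NT library, the one at 165 CPM, where the log2 fold change was -0.26 (adjusted p = 0.544). Vcl was also lower in every vector library, at 11.95, 14.1 and 13.2 CPM against 17.2 and 18.7 CPM (-0.46, SE 0.138, adjusted p = 0.0842 by edgeR), and did not pass. In all, 7 of the 8 genes had negative values, with a median of -0.20 against 0.02 over all genes, and Srf was the exception.

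Addback of WT Smarcc2 to the knockout moved no member past the threshold. At rest 0.0143% of all genes were called (3; 2316 at an unadjusted p under 0.05 and 178 by DESeq2), and under KCl 0.00955% (2; 835 and 6). Members had positive values in 4 of 8 cases at rest and in 7 of 8 under KCl, where the median was 0.14 against 0.01 for all genes. Vcl was 0.25 higher (adjusted p = 0.999 by edgeR), and Tpm1 stood at 114, 129 and 119 CPM in WT against 111, 117 and 114 CPM in vector (0.08). The Ccn1 value was 0.70 (adjusted p = 0.999 by edgeR), and the fit with no low-count filter gave an adjusted p of 0.0301 for it. That fit called 127 genes in this comparison, against 2 in the main fit. Leaving out the first WT KCl library turned the sign of the Ccn1 value (-0.20).

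The S586E and S586A mutants were each compared with WT addback in the 1 state they share. Every mutant library also held more Smarcc2 RNA than every WT library of its state. The log2 fold change was 0.64 for S586E and 0.54 for S586A, neither called by edgeR. The mutation and the level of addback therefore cannot be told apart. S586E against WT at rest called 0.0% of all genes by edgeR (0; 2696 at an unadjusted p under 0.05 and 319 by DESeq2), and none of the 8. Of the 8 members, 7 were positive, with a median of 0.21 against 0.01 for all genes. Tpm1 stood at 175, 145 and 148 CPM in S586E and at 131 and 118 CPM in WT (0.32, SE 0.103, adjusted p = 0.208 by edgeR). Srf (0.24, adjusted p = 0.303) and Vcl (0.28, adjusted p = 0.412) likewise had every S586E library above every WT library, whereas Ccn1 had the opposite sign (-0.49, adjusted p = 0.810). The summed level of the 6 neuronal markers was 3629 to 4245 CPM in S586E and 3332 to 3574 CPM in WT; its part was not tested. S586A against WT under KCl also called 0.0% of genes by edgeR (0; 1824 and 19) and none of the 8, with 4 members positive and 4 negative. The lowest adjusted p of the 8 was that of Actg1 (0.19, adjusted p = 0.617), followed by Vcl (-0.20, adjusted p = 0.680) and Flna (-0.22, adjusted p = 0.719).

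**Figure D4:**
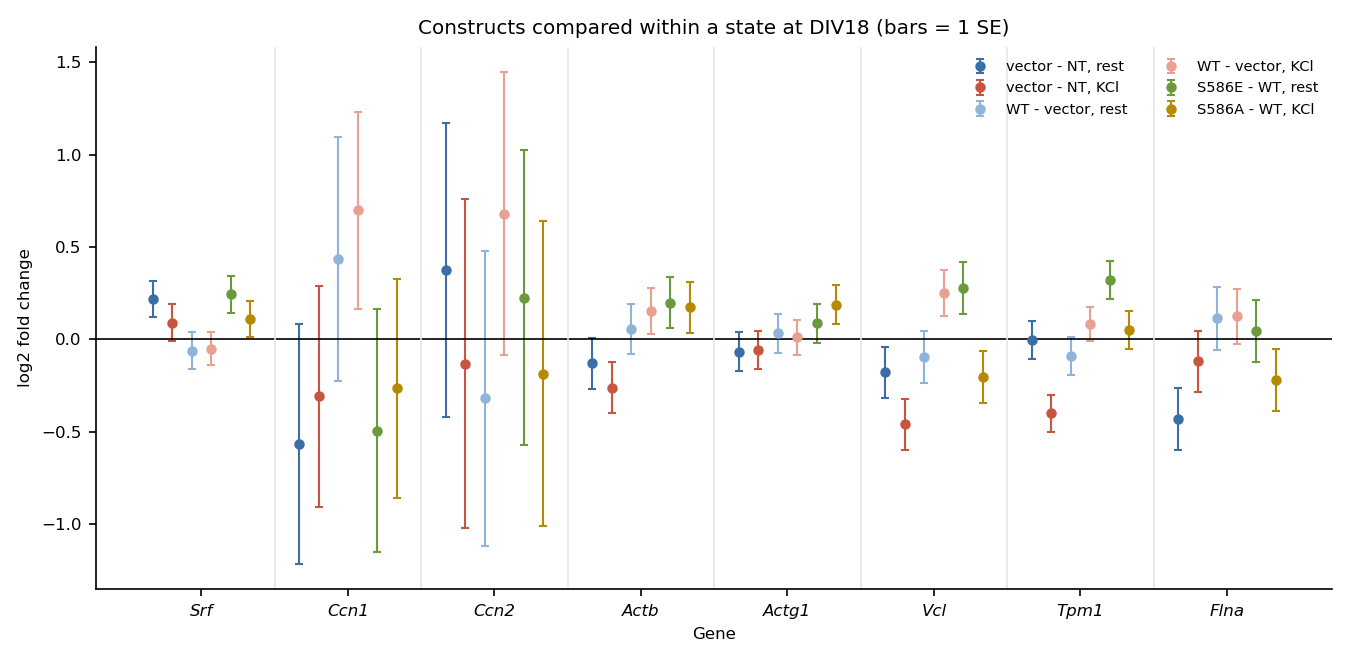
Log2 fold change of each gene between constructs within 1 state at DIV18, with bars of 1 SE and 2 or 3 libraries per group. Tpm1 in vector minus NT under KCl, at -0.40, is the 1 value called; Ccn1 and Ccn2 carry the widest bars.

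Every gene of the pathway lists that was called in Smarcc2 loss was lower in the knockout, while the genes not called had both signs. Of 40 cytoskeletal targets tested at rest, 5 (12.5%) fell and none rose, where 5.9% of all genes were called, more of them lower (790) than higher (446). The list median was -0.27 against 0.02 over all genes, with 26 values negative and 14 positive. They were the fibronectin receptor subunit Itga5 (20.1 CPM in NT against 9.21 in vector, log2 fold change -1.13, adjusted p = 0.0497 by edgeR), Pdlim5 (-0.89, adjusted p = 0.0340), the adhesion protein gene Zyx (-0.69, adjusted p = 0.0101), the actinin gene Actn1 (-0.50, adjusted p = 0.0120) and Myh9 (-0.48, adjusted p = 0.0202). Under KCl 2 of the 40 (5.0%, against 2.67% of all genes) fell, Zyx (-0.65, adjusted p = 0.0267) and Actn4 (-0.31, adjusted p = 0.0262), with a median of -0.21 against 0.02 and 10 positive values. Both counts went to 0 with length offsets, and the count at rest also went to 0 when only the 2 groups compared were fitted or without the second NT library, and to 3 without the first vector library. Under KCl it was 0 without either NT library or without the first or the third vector library, and 1 without the second vector library. None of the 13 early targets was called in Smarcc2 loss in either state, and 11 of them had positive values under KCl (median 0.09). In WT addback against vector, the main fit called 0 genes of these lists in either state. Of all genes it called 3 at rest and 2 under KCl. There the medians at rest and under KCl were 0.115 and 0.101 for the cytoskeletal list. They were 0.099 and 0.191 for the CCN list, and 0.222 and 0.197 for the YAP-TEAD list.

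Among genes around the CCN proteins and YAP, 2 of each list were called in each state, all of them lower. At rest, the integrin subunit Itgav (-0.86, adjusted p = 0.00992 by edgeR) and the endocytic receptor Lrp1 (-0.37, adjusted p = 0.0456) fell among 9 CCN relatives and receptors, and Yap1 (16.3 CPM in NT against 7.30 in vector, -1.15, adjusted p = 0.00442) and its relative Wwtr1 (-0.90, adjusted p = 0.00905) fell among 16 YAP-TEAD genes. List medians were -0.69 and -0.57 against 0.02 for all genes, and 22.2% and 12.5% were called against 5.9%. Under KCl, Ccn4 (-1.46, adjusted p = 0.0485) and Lrp1 (-0.60, adjusted p = 0.00723) fell in the first list and Wwtr1 (-0.72, adjusted p = 0.0466) and the kinase gene Lats2 (-0.53, adjusted p = 0.0277) in the second, with medians of -0.60 and -0.47 against 0.02, and the same shares called against 2.67%. Of the values not called, 3 in the YAP-TEAD list were positive in each state, and 1 in the CCN list at rest and 3 under KCl. Of the 16 SRF regulators, the MAP kinase gene Mapk3 fell at rest (-0.61, adjusted p = 0.00356 by edgeR) and none was called under KCl. At rest all 3 lists had 0 calls without the second NT library, the CCN list had 1 without the first NT, the first vector or the third vector library, and the regulators had 2 without the first NT library. Under KCl, the CCN list had 0 calls without the second NT library and 1 without the first NT, the first vector or the second vector library, and the YAP-TEAD list had 1 without the first vector library and 0 without any other library. With length offsets the YAP-TEAD list had 1 call and the CCN list 0 at rest, and both had 0 under KCl.

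Markers of other cells moved with these lists. The 7 astrocyte markers summed to 539 to 553 CPM in NT and 127 to 454 CPM in vector at rest, and to 385 to 758 and 203 to 282 CPM under KCl; all 7 had negative values in both states (medians -0.76 and -1.22), with 1 and 2 called lower. Oligodendrocyte-lineage markers summed to 195 to 205 CPM in NT and 133 to 151 CPM in vector at rest, with 4 of 7 called lower, and to 129 to 211 and 112 to 132 CPM under KCl, with 3 of 7 called lower. Microglial markers summed to 6.85 to 7.76 CPM in NT and 3.81 to 3.83 CPM in vector at rest. Fibroblast or mural markers had a higher sum in vector at rest, at 18.7 to 28.0 CPM in NT and 36.8 to 51.0 CPM in vector, with 1 of 6 called higher. Yet 4 of these 6 had negative values and 2 positive (median -0.17), so the sum does not stand for most of them. Under KCl the signs were again 4 negative and 2 positive (median -0.69). Neuronal markers summed to 3668 to 3697 CPM in NT and 3331 to 3891 CPM in vector at rest, and to 3631 to 3957 and 3170 to 3267 CPM under KCl. Of the 6, 4 had negative values at rest (median -0.09) with none called, and all 6 under KCl (median -0.18) with 1 called lower. The part of these cells in the lower levels of Tpm1, Zyx, Yap1 and the rest was not tested.

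**Figure D5:**
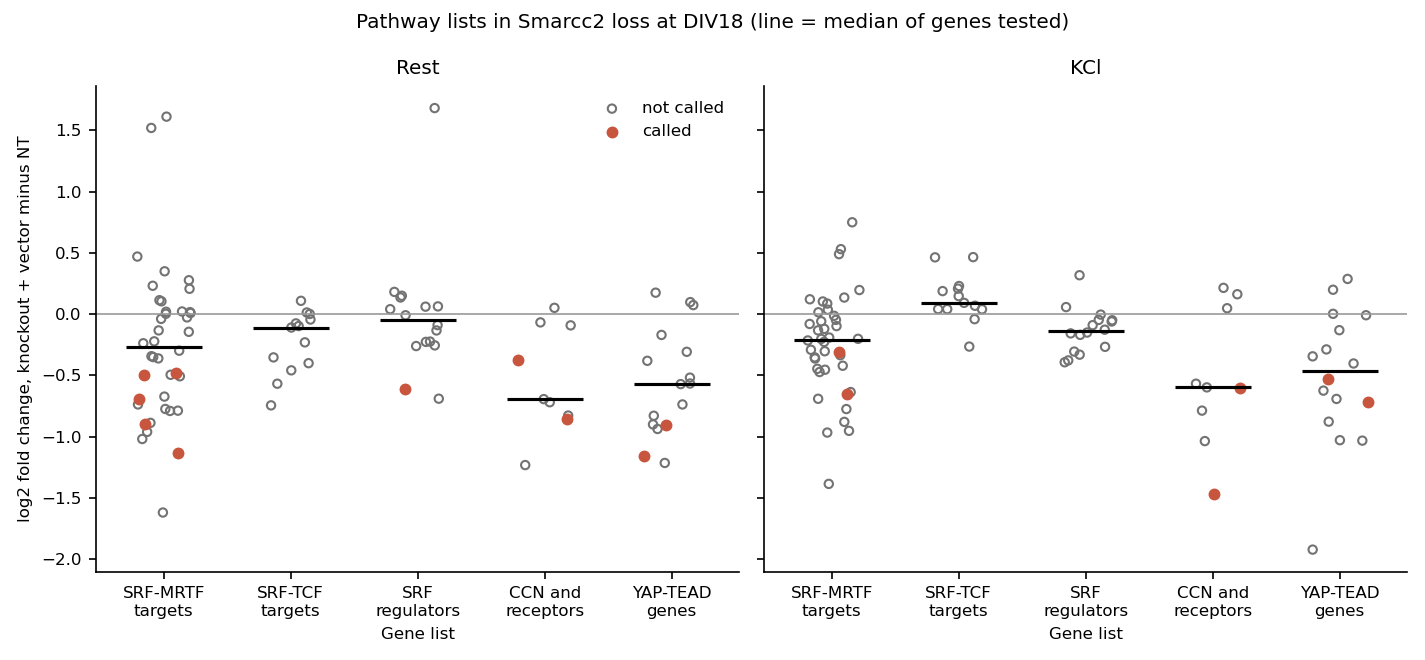
Log2 fold change of each tested gene of 5 lists in knockout with vector against NT, at rest and under KCl, with called genes filled and a line at each list's median. Medians of the cytoskeletal, CCN and YAP-TEAD lists lie between -0.21 and -0.69, and every called gene lies below 0.

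The estimated transcript shares within Actg1 differed between the DIV18 groups in a way its summed count does not show. The form Actg1-204 held at most 0.113% of Actg1 counts at DIV7, and at DIV18 it held 5.40% to 10.5% in NT at rest, 18.0% to 28.2% with vector, 14.1% to 18.3% with WT addback and 5.06% to 15.0% with S586E. Under KCl it held 2.86% to 14.8% in NT, 15.8% to 23.3% with vector, 9.87% to 18.2% with WT and 11.9% to 17.2% with S586A. Vector libraries thus lay above NT libraries in both states, without overlap, and the main form Actg1-202 took the complementary share, 89.2% to 94.3% in NT and 71.2% to 81.4% with vector at rest. The shares were chosen after their values were seen and were not tested. DIV7 and DIV18 differ in library preparation here as well.

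Across the 20 DIV18 libraries, the pattern of Ccn1 was most like that of other early-response genes, and that of Actb most like tubulins. With Pearson's r of log2(CPM + 1) over 15135 genes as the measure, Ccn1 stood closest to Gm13889 (0.906), Btg2 (0.90), Dusp1 (0.897), Jund (0.889) and Jun (0.882). Within the 10 KCl libraries these were 0.898, 0.896, 0.903, 0.92 and 0.811, and within the 10 resting ones 0.62, 0.552, 0.445, 0.69 and 0.781. Actb stood closest to Tuba1b (0.96), Tubb5 (0.924), Tuba4a (0.924), Ywhae (0.922) and Tuba1a (0.922). Those nearest to Ccn2 were Exosc4 (0.824), Cox15 (0.822), Ccdc85a (0.791), Usp42 (0.776) and Hs3st4 (0.759), which at its 2.5 to 32 counts is no finding. Among the members, Actb went with Actg1 (0.91) and with Tpm1 (0.764), Ccn1 with Flna (0.532), and Ccn1 had little relation to Ccn2 (0.143) or Srf (-0.285). These pairs run over resting and KCl libraries together, so they include the KCl responses on which the members were chosen. Values within a state were not computed for them. The points share their libraries, depth and RNA composition, and these coefficients are a description.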

How the data were processed

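Paired-end RNA-seq libraries of primary cortical neurons were quantified by the submitters, who list FastQC, cutadapt and kallisto in the submitters' processing notes; versions, genome build and annotation are not given in the sources used here. Per the file headers, the authors deposited for every transcript an estimated count, a TPM (a level scaled by transcript length within a library) and an effective length, which was used only for the length offsets. Of 142552 transcripts in each table, 141429 (99.2%) were matched by accession to GENCODE M21 on GRCm38; the remaining 1123 held at most 0.467% of a library's counts and were left out. Deposited estimated counts were summed over the transcripts of each gene, which gave 55177 genes, and rounded to whole numbers for the tests. Depth was 24536056 to 30135576 counts per DIV7 library and 14510199 to 24024959 per DIV18 library. CPM were computed here from TMM-scaled library totals, separately for each age, and log2 fold changes are from the fitted model.

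Genes were tested with edgeR 4.0.16 in R 4.3.3 (filterByExpr, glmQLFit, glmQLFTest), with Benjamini-Hochberg adjustment over all genes tested and a call at an adjusted p under 0.05. The DIV7 groups were fitted alone (19822 genes tested, biological coefficient of variation 6.44%, 2 residual degrees of freedom) and the 8 DIV18 groups in 1 fit (20940 genes, 14.6%, 12 degrees of freedom). Libraries of a group differed beyond sampling noise (chi-square per degree of freedom 5.60 to 36.2), so none was treated as a duplicate. Same-numbered libraries deviated together in all 3 pairs in the KCl response of the knockout with vector (r 0.167, 0.187 and 0.367) and in the WT addback under KCl (r 0.239, 0.25 and 0.404). There the numbers may pair the samples, as read from the data, but differently numbered libraries were not compared. The main fit did not use such a pairing. The blocked fit, an alternative, called 16 genes in the first (15 in the main fit) and 2 in the second (2 in the main fit).

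Members and gene lists were chosen with earlier results of these data known. Named are the 8 members in every comparison; every pathway gene called between constructs or in a DIV18 KCl response; at DIV7 up to 3 called genes with the largest rise and 3 with the largest fall per list; for Ccn1, Ccn2 and Actb the 5 genes (mean at least 1 CPM) with the highest Pearson r of log2(CPM + 1) over the DIV18 libraries; and Smarcc2. Mcl1, Itgb1, Rock1, Fos by library and the transcript shares were added after their values were seen. Alternatives were RLE size factors, DESeq2 1.42.0, no low-count filter, a replicate block, length offsets, protein-coding transcripts only, only the groups compared, log2(TPM + 1), leaving out each library, and a crossed replicate block chosen after seeing the data. The scripts were tested on simulated data. Python 3.11.15, pandas 2.3.3, numpy 2.4.6 and matplotlib 3.10.9 were used.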

Additional observations from a re-analysis of the deposited data

Results flagged for a closer look

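In 4 pairs of settings, every KCl library of a gene lay on opposite sides of its resting libraries. Only the members were searched for such pairs, and the share of all genes with one was not counted. With so few libraries per group, full separation can also arise by chance. Whether these pairs exceed what chance gives was not tested. Tpm1 had a log2 fold change of 0.18 in NT and -0.22 in the knockout with vector, both at DIV18. Actg1 had 0.066 at DIV7 and -0.12 in the WT addback at DIV18. Flna had -0.99 at DIV7 and 0.47 in the vector and 0.48 in the WT addback at DIV18. Without the second KCl library the NT value of Tpm1 was 0.038, and without the third resting library its vector value was -0.12. The difference between the Tpm1 responses, -0.40 (SE 0.145), is a description, since the genes were chosen on these responses, and it was not called in the fit over all genes. The differences across ages were not tested, and there the library preparation differs too.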

How the results depend on the processing

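As a description of responses the members were chosen on, the DIV7 log2 fold changes of Srf, Ccn1 and Flna ran from 0.56 to 0.59, 4.38 to 4.85 and -1.22 to -0.94 over 10 alternatives. The Tpm1 value in Smarcc2 loss under KCl ran from -0.53 to -0.26 and was called in 8 of 12. Of 579 member values between constructs under an alternative, 37 were of the opposite sign, in none of them called. Levels near those of Ccn2 limit what the depth can show. Where leaving out a library left an arm with 1 sample, that sample is assumed to vary like the others. For the counts that moved, the cause was not tested, apart from fewer libraries where one was left out.

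Genes called, in the order DIV7, NT, vector and WT responses: DESeq2 gave 2217, 15, 52 and 32 (edgeR 3371, 2, 15 and 9), and leaving out 1 library gave 1459 to 2630, 0 to 5, 5 to 10 and 1 to 12. No low-count filter gave 192, 515 and 196 at DIV18. Length offsets gave 1 in NT, and fitting only the groups compared gave 0 in NT and 5 in WT. For Smarcc2 loss, main counts of 1236 at rest and 560 under KCl became 685 and 278 with length offsets, 2016 and 1437 with no filter, 100 to 1031 and 37 to 241 without 1 library, 225 at rest with only the groups compared, and 933 under KCl with DESeq2. For WT addback (3 at rest, 2 under KCl) DESeq2 gave 178 and 6, no filter 604 and 127, and leaving out 1 library 2 to 23 and 2 to 4. For S586E and S586A against WT (0 and 0) DESeq2 gave 319 and 19, no filter 782 and 225, only the groups compared 43 and 22, length offsets 1 for S586E, and leaving out 1 library 0 to 1 for both.

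Members called in Smarcc2 loss numbered 1 at rest with no filter (Flna), 0 to 1 at rest and 0 to 1 under KCl without 1 library, and 1 in WT addback under KCl with no filter (Ccn1). In the DIV18 responses no filter called Ccn1 in all 3 constructs and Flna in vector and WT. Cytoskeletal targets called: DIV7 6, and 3 with length offsets or 3 to 5 without 1 library; loss at rest 5, and 0 with length offsets, 0 with only the groups compared, 11 with no filter and 0 to 5 without 1 library; loss under KCl 2, and 0, 4, 6 and 0 to 1 in the same order. No filter also called 1 in the vector response, 1 in WT addback at rest and 1 for S586E, where DESeq2 called 1. Over all alternatives, early targets called ranged from 0 to 10 in NT, 3 to 12 in vector and 1 to 11 in WT. Tln1 at DIV7 turned to 0.093 with length offsets (adjusted p = 0.649), the 1 called pathway gene to reverse.

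With the replicate number as a block, 5857 genes were called at DIV7 and 8 in NT, 36 in WT addback at rest, 43 for S586E and 1 for S586A, with 13 cytoskeletal targets at DIV7. In these comparisons same-numbered libraries did not all deviate together, or there were only 2 pairs (r -0.17 in NT, 0.139 at DIV7), so the numbers are not taken to pair them. The block changed no member's call between constructs, and Tpm1 in Smarcc2 loss under KCl was -0.41 (adjusted p = 0.0380). In NT, exchanging the numbers of the KCl libraries in the block, an alternative chosen after seeing the data, gave 6 called genes.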
